A study of Mus musculus with 10 samples.

Results

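Full-length cDNA transcripts catalogued under GenBank accessions that begin with AK were followed through mouse fat and through brown fat cells in culture. A non-control probe was included when its systematic name on the array was AK followed by digits, except for AK138758, AK138450, AK196148, AK015763, AK145170, AK217121 and AK018648. The rule left 154 transcripts of the 59709 probes on the array, and each was measured by 1 probe printed once. Many mouse records with this prefix come from the RIKEN collection of full-length cDNA clones, which sequenced transcripts end to end and turned up many without a clear protein product. The files give these probes an accession only. None of the 154 accessions matched a gene in the RefSeq table used for names, so no gene name, position or sequence is printed, and their labelling as non-coding could not be checked against the data.

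Long non-coding RNAs are transcribed and often spliced like messenger RNAs but are not thought to be translated into protein. Some act in the nucleus by binding chromatin or transcription factors, and several have been tied to the making of fat cells. Brown fat burns lipid for heat through the uncoupling protein of its mitochondria, white fat stores lipid, and stimulation of the β3-adrenergic receptor on fat cells drives lipid release and can give white depots some features of brown fat.

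RNA was measured on 10 one-colour arrays, 1 per sample. The tissue groups were brown fat and white fat from saline-injected mice and white fat from mice that received CL316,243, a β3-adrenergic agonist, at 1 mg/kg in a daily intraperitoneal injection for 7 days, with 2 arrays in each group. All mice were wild type on chow. The remaining 4 arrays held wild-type brown adipocytes, with 1 array each for days 0, 3, 5 and 7 after the start of differentiation. The labels call the paired tissue arrays biological replicates without saying whether they came from separate or pooled mice, so p-values measure the spread between these arrays, which may be technical, and the labels give neither the age of the mice nor the white depot.

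Each value is the log2 of the processed signal less the array's own 75th percentile, called the scaled level below, and a level of one transcript cannot be set against that of another. Of 68 marker genes of fat, immune, vascular, muscle, blood and nerve cells, 3 were measured under their names, so the tissue labels could be checked only in part. Gk, the glycerol kinase of the brown adipocyte list (1 of 13 markers measured), was at 0.59 and 0.80 in brown fat and at -1.79 and -1.67 in saline white fat. The chemokine genes Ccl21b and Ccl21c, from the lymphocyte and lymph node list (2 of 9 markers measured), are near-identical copies. Ccl21b was at 4.27 and 5.58 in brown fat, 7.72 and 7.49 in saline white fat and 6.16 and 7.11 after CL, and at -0.85 to -0.50 in the cells. All 6 tissue arrays were scanned together and the 4 cell arrays in another scan. A header field gives each array 2 numbers, read here as slide column and row, which the labels do not state. By that reading brown fat held rows 1 and 2 of column 1, saline white fat rows 3 and 4, and CL-treated white fat column 2. Tissue and row, and CL and column, then cannot be told apart. The days held rows 1 to 4 in order in their own scan, so day and row cannot be told apart there either.

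How many of the AK transcripts gave signal in fat depended on the cutoff. A flag in the scanner files marks a spot whose signal lies well above its background, and 81 of the 154 carried it on all 10 arrays (52.6%, against 49.5% of all probes), while 21 carried it on none (13.6%, against 12.2%). By array, 61.7% and 74.0% of the transcripts passed in brown fat, 79.9% and 80.5% in saline white fat, 66.9% and 74.7% in CL-treated white fat, and 70.8%, 72.7%, 64.9% and 68.2% on days 0, 3, 5 and 7. The share was above that of all probes on each of the 6 tissue arrays and below it on each of the 4 cell arrays. Negative control spots carried the same flag on 10.9% to 36.4% of spots, so a set flag alone does not show that a transcript is present. Above the 95th percentile of those negative control spots lay 40.3% and 45.5% of the AK transcripts on the brown fat arrays, 56.5% and 65.6% on the saline white arrays, 58.4% and 53.2% on the CL arrays and 35.7% to 50% on the cell arrays.

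**Figure D1:**
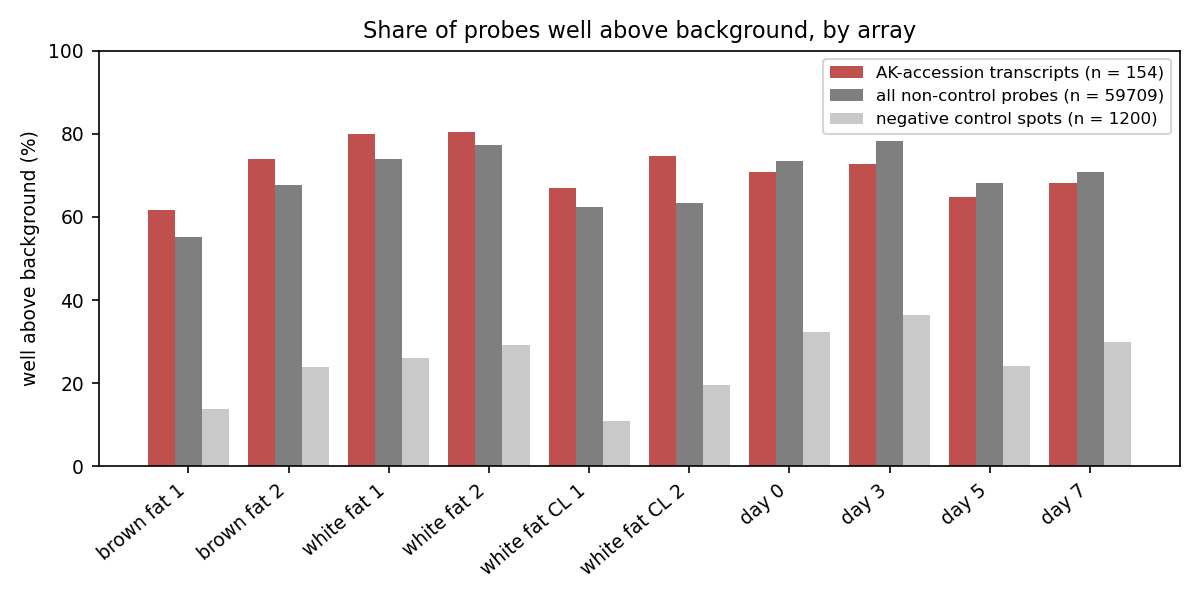
Share of spots flagged well above background on each array, in percent, for the 154 AK transcripts, for all 59709 non-control probes and for 1200 negative control spots. The AK transcripts stand above all probes on the 6 tissue arrays (61.7% to 80.5%) and below them on the 4 cell arrays (64.9% to 72.7%).

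Some transcripts passed the flag in tissue alone or in cells alone. The flag was set on at least 1 tissue array and no cell array for 16 transcripts, and on a cell array but no tissue array for 2, AK082188 and AK141242. AK029714, AK029817, AK077064, AK136647 and AK155601, picked out after their values were seen, were well above background on all 6 tissue arrays and on no cell array, 3.25% of the transcripts against 0.377% of all probes. By the 95th percentile of the negative control spots in place of the flag the count was also 5, and by a looser flag in the files for signal above background it was 1.

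AK029714 was at -1.52 and -0.91 in brown fat, 0.17 and 1.43 in saline white fat, 0.04 and 1.34 after CL, and between -6.40 and -4.76 in the cells. AK029817 was at -0.50 and 0.13 in brown fat, 1.35 and 1.82 in saline white fat, 0.09 and 1.46 after CL, and between -6.98 and -5.58 in the cells. For both, every brown fat array was below every white fat array after saline. AK077064 overlapped between the tissues, at -0.72 and -0.32 in brown fat and -0.42 and 0.01 in saline white fat, and its CL arrays were at -1.94 and -0.06. AK136647 was at -2.71 and -2.09 in brown fat and -1.51 and -1.17 in saline white fat, and AK155601 at -1.81 and -1.88 against -1.10 and -0.65. None of the 5 was called in any tissue comparison described below, with the smallest limma adjusted p at 0.0716, for AK029714 between brown and white fat.

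**Figure D2:**
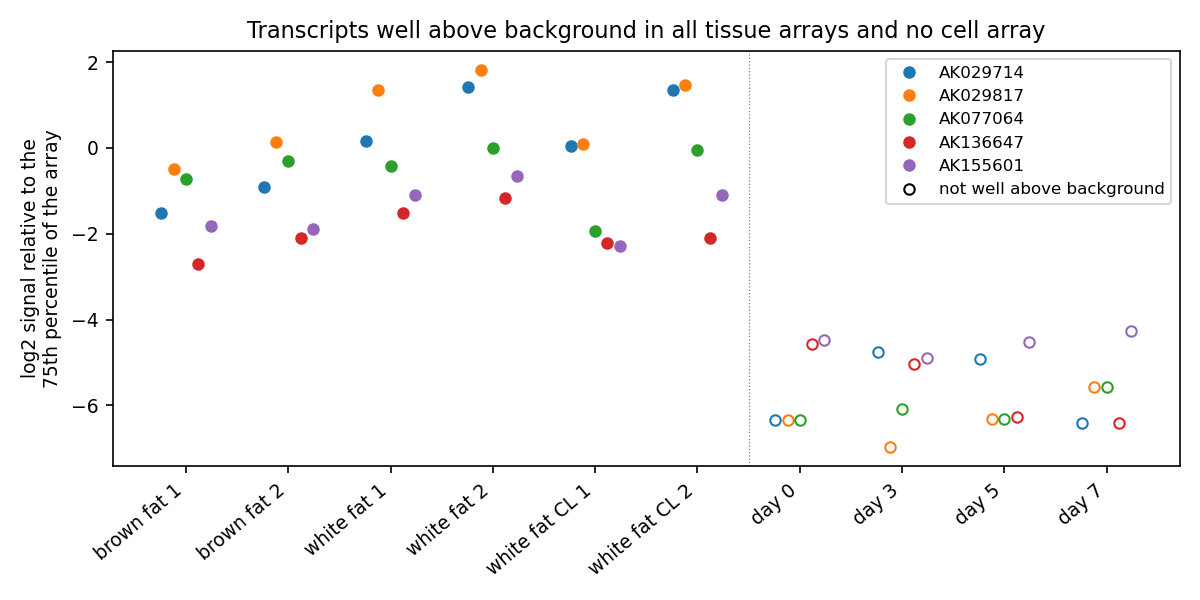
Scaled level (log2, relative to each array's 75th percentile) on each of the 10 arrays for the 5 transcripts well above background in every tissue sample and in no cell sample; filled points are well above background and open points are not. The tissue points lie between -2.71 and 1.82 and the cell points between -6.98 and -4.27.

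A further gap between tissue and culture appeared among transcripts well above background on all 10 arrays. Of 79 such transcripts with no outlier spot, 5 were at least 2-fold lower on every cell array than on every tissue array (6.33%, against 1.86% of all probes) and 1 was at least 2-fold higher (1.27%, against 1.31%). Tissue and culture differ in scan as well as in source, so scan and source cannot be told apart. AK007918 showed the widest gap, at 3.28 and 6.47 in brown fat, 3.94 and 3.89 in saline white fat, 4.08 and 5.35 after CL, and -1.71, -1.98, -1.97 and -2.32 on days 0, 3, 5 and 7. The nearest tissue and cell arrays of AK007918 were 4.99 log2 units apart, and its 2 brown fat arrays were themselves far apart. AK156239, AK039462, AK156563 and AK132675 were the other 4, with gaps of 3.16, 2.32, 2.09 and 1.28. AK166279 was the single transcript higher in the cells, at 4.27, 0.30, 1.07 and 1.80 by day against -2.81 to -1.26 in the tissues.

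The first tissue comparison asked which AK transcripts differ between brown and white fat after saline. Of 120 transcripts that could be tested, 5 were higher in brown fat and 4 were lower, and the sizes ran from 2.81-fold to 5.46-fold. That is 7.50% of the transcripts tested, against 10.4% of all 43542 probes tested in this fit. The order of these shares depended on the setting: it was the same with quantile normalization, no filter and the deposited value table, and the AK share was the higher with the array median (14.2% against 13.4%), normexp (12.5% against 10.2%), array weights (46.7% against 37.7%), the saline groups alone (37.5% against 32.7%) and probes well above background on all 6 arrays (20.4% against 17.2%). In the higher direction the share was 4.17% against 5.53% of all probes, and in the lower direction 3.33% against 4.86%. Calls rest on a limma fit over all probes of the 6 tissue arrays at a Benjamini-Hochberg adjusted p under 0.05, two-sided. All 9 were well above background on every tissue array, and the precision is limited by 2 arrays a group.

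Among those higher in brown fat, AK156275 had the largest difference, at 1.25 and 0.32 in brown fat, -1.73 and -1.16 in saline white fat and -1.08 and -0.62 after CL. Both brown arrays lay above all 4 white fat arrays, and the difference from saline white fat was 4.69-fold (log2 2.23, SE 0.45, limma adjusted p = 0.0301). AK020828 was at 0.80 and 0.55 in brown fat, -1.59 and -1.28 in saline white fat and -1.15 and -0.64 after CL (log2 2.11, SE 0.37, limma adjusted p = 0.0223). AK140593 was at 0.51 and 0.63, against -1.22 and -1.20 in saline white fat and -0.46 and -0.43 after CL (log2 1.78, SE 0.34, limma adjusted p = 0.0262). In these transcripts the CL-treated arrays sat between the saline tissues, nearer to white fat.

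The remaining pair of brown-enriched transcripts also had CL means between those of the saline tissues, and for AK048812 the first CL array lay within the range of the saline white arrays. AK037428 was at -0.99 and -1.51 in brown fat, -3.08 and -2.84 in saline white fat and -2.52 and -2.49 after CL (log2 1.71, SE 0.37, limma adjusted p = 0.0336). With normexp background correction its difference fell to 1.01 and the call was lost (limma adjusted p = 0.0724). AK048812 was at 0.09 and -0.10 in brown fat, -1.66 and -1.34 in saline white fat and -1.53 and -1.0 after CL (log2 1.49, SE 0.37, limma adjusted p = 0.0471). None of the 5 was raised or lowered in the cultured cells, where AK156275 moved only between -1.34 and -0.99.

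Among the transcripts lower in brown fat, AK038804 was at -1.96 and -1.06 there, 1.08 and 0.80 in saline white fat and 1.38 and 0.82 after CL (log2 -2.45, SE 0.44, limma adjusted p = 0.0225). Its CL-treated arrays lay with the saline white arrays, and it was the one called transcript whose CL mean was not between the brown and white means. AK132892 was at -1.41 and -1.16 in brown fat, 0.77 and 1.48 in saline white fat and -0.92 and 0.56 after CL (log2 -2.41, SE 0.54, limma adjusted p = 0.038). AK084568 was at -0.38 and -0.06 in brown fat, 1.44 and 1.71 in saline white fat and 0.28 and 0.99 after CL (log2 -1.80, SE 0.40, limma adjusted p = 0.0357). AK132892 and AK084568 therefore had their CL-treated arrays in between, with no overlap with either saline group. AK030568 was at -1.28 and -1.79 in brown fat, 0.09 and 0.05 in saline white fat and -0.26 and -0.20 after CL (log2 -1.61, SE 0.36, limma adjusted p = 0.0372).

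**Figure D3:**
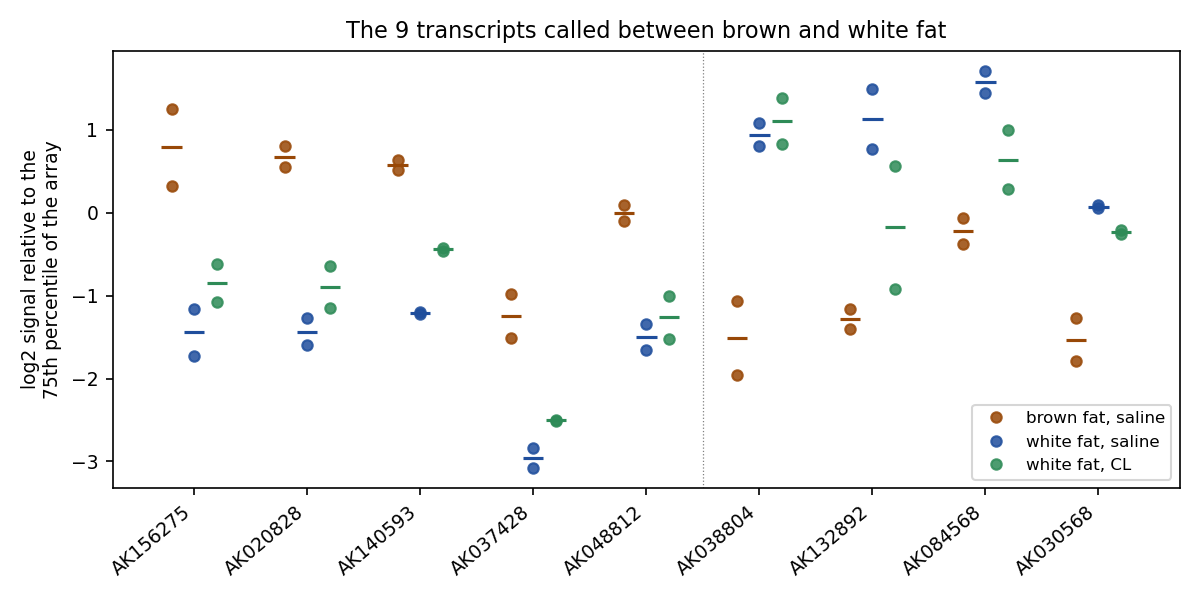
Scaled level (log2, relative to each array's 75th percentile) on each tissue array for the 9 transcripts called between brown and white fat, with group means as bars, n = 2 arrays a group. The 5 transcripts left of the dotted line are higher in brown fat and the 4 to its right are lower, and brown and saline white arrays do not overlap for any of them.

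The 9 calls were lost when any saline array was left out, as were most calls over all probes. The differences kept their direction, which was fixed in advance, because brown and saline white arrays did not overlap for any of the 9. Such a fit leaves 1 array in a group, which is assumed to vary like the other groups, so its counts are not given here. In these fits AK156275 differed by 1.77 to 2.69 and AK140593 by 1.72 to 1.84. With the saline groups alone, limma called 45 AK transcripts, with 8 up and 37 down in brown fat, and these included all 9. In the fit of the saline groups alone the lower calls were 30.8% of the transcripts against 18.5% of all probes, and the higher calls 6.67% against 14.2%. Other scalings also moved the split of the calls, to 6 higher and 8 lower with quantile normalization, 6 and 11 with the array median, and 7 and 7 in the deposited value table.

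The 111 transcripts not called lay mostly on the white fat side. Over all 120 tested, 85 were below 0 and 35 above, and the median difference was -0.51, against -0.12 over all probes tested. In 37 transcripts (30.8%) the level was at least 2-fold lower in brown fat, against 20% of all probes, and in 9 (7.50%) at least 2-fold higher, against 13.6%. The brown and saline white arrays did not overlap in 96 of 119 transcripts with all 4 values (80.7%, against 72.6% of all probes), 68 lower (against 40.5%) and 28 higher (against 32.1%) in brown fat. Of the 120, 20 were tested only because they passed the signal flag in saline white fat and 0 only because of brown fat, so these shares are a description and no support is drawn from them. The 2 brown fat arrays also had the lower flag rates of the saline arrays, and Ccl21b was lower on both of them. Their part in the result was not tested.

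**Figure D4:**
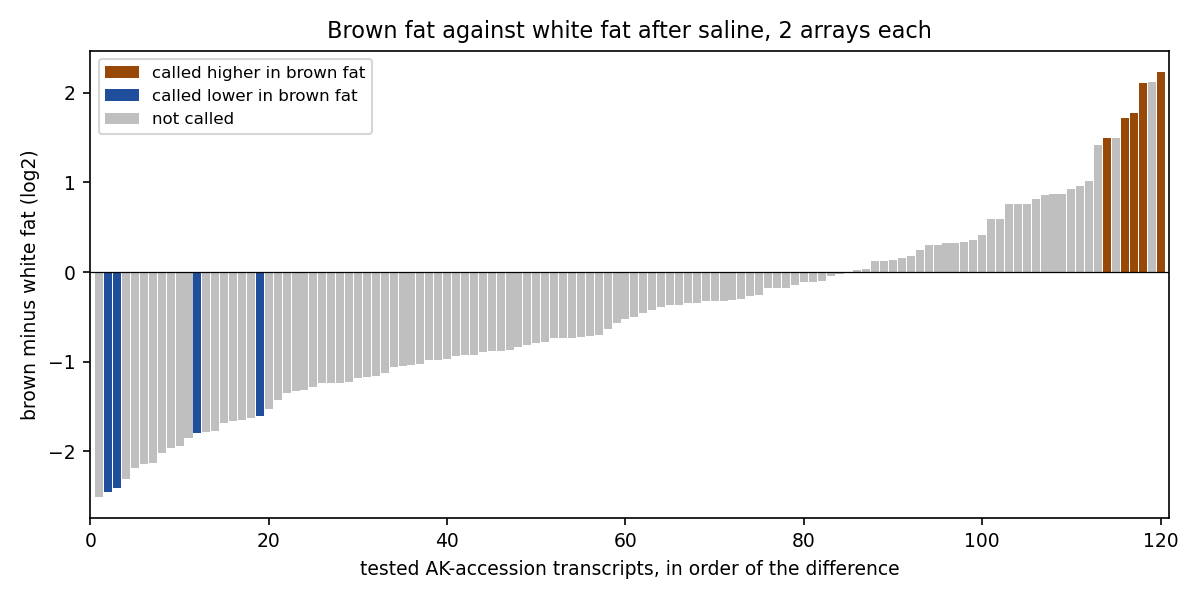
Difference between brown and white fat after saline (log2, mean of 2 arrays minus mean of 2 arrays) for each of the 120 tested AK transcripts in order, with called transcripts in colour. Bars below 0 number 85 and bars above 0 number 35, and several of the widest differences, such as AK135967 at -2.50, are not called.

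AK135967 had the lowest difference of all, at -2.50, and was not called. Its arrays scattered, as it was at -2.87 and -0.36 in brown fat, 1.53 and 0.26 in saline white fat, and 1.40 and -1.68 after CL (SE 1.13, limma adjusted p = 0.186). AK201860, at 2.12 in the other direction, behaved likewise, with -0.41 and -2.62 in brown fat against -3.88 and -3.39 in saline white fat (SE 0.75, limma adjusted p = 0.11). For both, the brown and saline white arrays did not overlap, and the differences did not pass the adjusted threshold.

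The signal flag itself differed between the tissues about as often among the AK transcripts as among all probes. In 10 transcripts both saline white arrays and neither brown array passed the signal flag (6.49%, against 7.16% of all probes), and 0 showed the reverse (against 0.301%). The brown fat arrays had lower flag rates over all probes too (55.2% and 67.8%, against 74.0% and 77.3% in saline white fat). AK047423, AK138172 and AK149214 passed on both saline white arrays and on no other tissue array. AK138172 was at -2.85 and -2.12 in saline white fat, -4.48 and -3.81 in brown fat and -4.80 and -3.60 after CL. The white fat level was at least 1.88-fold above the brown fat bound and at least 2.17-fold above that after CL, where the bound takes, for each array, the higher of the probe's own signal and the dimmest signal that still passed the flag. AK047423 and AK149214 were between -4.06 and -3.80 in saline white fat, and none of the 3 was called.

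Transcripts without a signal in culture were also compared between the tissues. The 9 that were tested in tissue but well above background on no cell array all lay lower in brown fat, with a median of -1.66, against 76 of 111 with a median of -0.40 among those seen on a cell array. Over all probes the same split gave medians of -1.29 and -0.09, with 84.3% and 54.2% lower in brown fat, so all probes showed the same split. Of the 9, 4 were tested only because saline white fat passed the flag, which favours a lower level in brown fat. The other 5 also lay lower in brown fat, with a median of -1.06, and over all probes chosen likewise 460 of 643 did, with a median of -1.13. Ccl21b, at 7.72 and 7.49 in saline white fat, was below 0 on every cell array, and Ccl21c was at 1.32 to 1.69 there. Their part in this pattern was not tested.

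The second comparison asked whether CL changed the AK transcripts in white fat. limma called 0 of 120 transcripts, as it called 0 of 43542 probes (0% of all probes tested), with 6 transcripts and 2378 probes at an unadjusted p under 0.05 and a smallest adjusted p of 0.57 among the transcripts. The CL arrays differed from each other more than the other pairs did. In 50% of the transcripts the 2 CL arrays were over 2-fold apart (35.0% of all probes), against 10.8% in brown fat and 3.36% in saline white fat, and the first CL array was the lower in 101 of 120. This comparison shares the saline white arrays with the first.

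The CL and saline arrays nevertheless did not overlap in 43 of 119 transcripts (36.1%, against 28.0% of all probes), 18 higher and 25 lower after CL (15.1% and 21.0%, against 12.6% and 15.4%). AK030313 had the largest difference, at -1.76 and -0.88 in saline white fat and 0.01 and 1.19 after CL (log2 1.92, SE 0.51, limma adjusted p = 0.624). It was at -1.21 and -1.11 in brown fat, so the CL arrays lay above both saline tissues. AK039249 was at -0.47 and -0.35 after saline and 0.80 and 1.43 after CL (log2 1.53, SE 0.37, limma adjusted p = 0.57), and AK153799 at -1.91 and -2.27 against -0.68 and -0.76 (log2 1.37, SE 0.63). AK051963, AK201860 and AK084660 had differences of 1.45, 1.30 and 0.81 (limma adjusted p = 0.945, 0.954 and 0.933).

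In the other direction AK138172 had the largest difference, at -1.71, and its CL arrays were not well above background. AK132892, already described as lower in brown fat, had CL arrays at -0.92 and 0.56 against 0.77 and 1.48 after saline (log2 -1.31, SE 0.54, limma adjusted p = 0.911). AK172441 followed at -1.245 (SE 0.56, limma adjusted p = 0.918), with only 1 CL array passing the signal flag. AK158041, AK018881 and AK156563 had differences of -1.24, -1.19 and -1.13. AK158041, AK018881 and AK156563 were also lower in brown fat than in saline white fat, by -1.78, -2.13 and -1.85, without a call (limma adjusted p = 0.0749, 0.0533 and 0.0522). Each of these was lower on the first CL array than on the second, AK158041 at -3.00 and -1.44, AK018881 at -1.83 and -0.44 and AK156563 at 0.30 and 1.42.

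Setting CL-treated white fat against brown fat, which share arrays with both comparisons above and differ in tissue as well as treatment, called 1 of 120 transcripts (0.833%, against 3.49% of all probes), 1 of them higher and 0 lower (against 1.98% and 1.51%). It was AK038804, whose values are given above, 6.12-fold higher in CL-treated white fat (SE 0.44 on the log2 scale, limma adjusted p = 0.0281). The call was lost without brown fat replicate 1 or 2 (limma adjusted p = 0.216 and 0.0662), with array weights (0.121) and with no filter on dim probes (0.0591). Leaving out either CL array keeps 1 array in that group, so calls from those fits are not counted here. Across the alternatives run, the AK038804 difference ran from 1.97 to 3.06 (log2).

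Other transcripts had sizeable differences without a call. AK051963 was not well above background in brown fat and lay at least 2.43-fold higher in CL-treated white fat, at -1.51 and -2.88 (limma adjusted p = 0.0948). AK020382 was at -2.21 and -2.14 in brown fat and -0.81 and 0.23 after CL, and AK155224 at 0.39 and 0.59 against 1.81 and 2.57 (log2 1.88 and 1.70, limma adjusted p = 0.0683 and 0.0622). AK029714 and AK030313 were higher after CL by 1.90 and 1.76. The 5 brown-enriched transcripts were lower in CL-treated white fat than in brown fat by 1.01 to 1.63, and AK086182 by 1.07, none of them called. Over all 120 the CL and brown arrays did not overlap in 50 (41.7%, against 49.7% of all probes), 36 higher and 14 lower after CL (30.0% and 11.7%, against 22.9% and 26.8%).

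The culture series followed brown adipocytes from day 0 to day 7 of differentiation. Against day 0, 17 of 116 AK transcripts were at least 2-fold lower on each of days 3, 5 and 7 (14.7%, against 6.20% of all 48586 probes), and 7 were at least 2-fold higher on each (6.03%, against 5.36%). Together these were 24 transcripts (20.7%, against 11.6%), and 92 met neither limit. With 1 array per day there is no replicate and no test, and the counts describe these 4 arrays only. Of the 17, 4 entered only because day 0 passed the signal flag (AK051963, AK082188, AK141242 and AK172441). Without probes that passed on day 0 alone, a filter chosen after seeing the data, 13 of 112 were lowered (11.6%, against 4.83% of all probes). With those probes included, other GenBank accessions on the array were lowered in 5.18% and lincRNA loci in 4.72%, beside the 14.7% and 6.20% above. With normexp correction the lowered transcripts numbered 10 and the raised 5, and with the array median 13 and 11, given without shares of all probes.

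By the rule the raised transcripts were up on day 3 already, and 3 of the 7 were highest on day 7, 2 on day 5 and 2 on day 3. AK015935 was at -1.48, -0.03, 0.29 and 1.20 on days 0, 3, 5 and 7 and was 6.43-fold higher on day 7 than on day 0. AK215547 went from 7.04 on day 0 to 9.51, 9.41 and 9.55, and AK188366 from 5.60 to 8.50, 8.36 and 8.09. These 2 varied little after day 3, while AK015935 was highest on day 7. AK201409 was at 2.06 on day 0, highest on day 3 at 5.61, and at 4.44 on day 7. AK028973 went from 1.04 to 2.75, 2.69 and 3.29, AK122515 from 2.92 to 4.01, 5.22 and 4.95, and AK153799 from -1.79 to -0.46, 0.21 and -0.38. All 7 were well above background on each of the 4 arrays.

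The lowered transcripts were likewise down on day 3 by the rule. Their median difference from the same day 0 array was -1.88 on day 3, -1.74 on day 5 and -2.04 on day 7. AK166279 had the largest difference on day 3, at 0.30 from 4.27, and was at 1.07 and 1.80 on days 5 and 7. AK038804 went from -0.42 to -3.80, -3.52 and -2.97, and AK132675 from -1.34 to -3.99, -3.63 and -3.55. AK038804 and AK166279 were thus lowest on day 3. AK021411 went from 3.00 to 1.00, 1.54 and 0.87, AK020382 from -0.37 to -2.51, -2.44 and -2.41, and AK052246 from 0.18 to -1.47, -1.56 and -1.86. AK030568 went from -0.16 to -2.04, -1.35 and -1.98. The lowest value came on day 3 for 8 of the 17, on day 5 for 4 and on day 7 for 5.

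For 5 of the lowered transcripts there is only a bound late in culture. AK041495 was at -1.78 on day 0 and -3.82 on day 3 and was not well above background on days 5 and 7, so its day 7 level was at least 4.90-fold lower. AK082188 was well above background on day 0 only, at -1.83, with a day 7 level at least 4.73-fold lower, and on no tissue array. AK141242 showed the same, at -3.05 on day 0 and at least 2.04-fold lower on day 7. AK051963 and AK172441 were lower by at least 1.59-fold and at least 1.08-fold. With normexp the day 7 differences of these 5, AK041495, AK082188, AK141242, AK051963 and AK172441, were -1.24, -1.0, -0.48, -0.49 and -0.37 on the log2 scale, smaller than in the main setting.

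**Figure D5:**
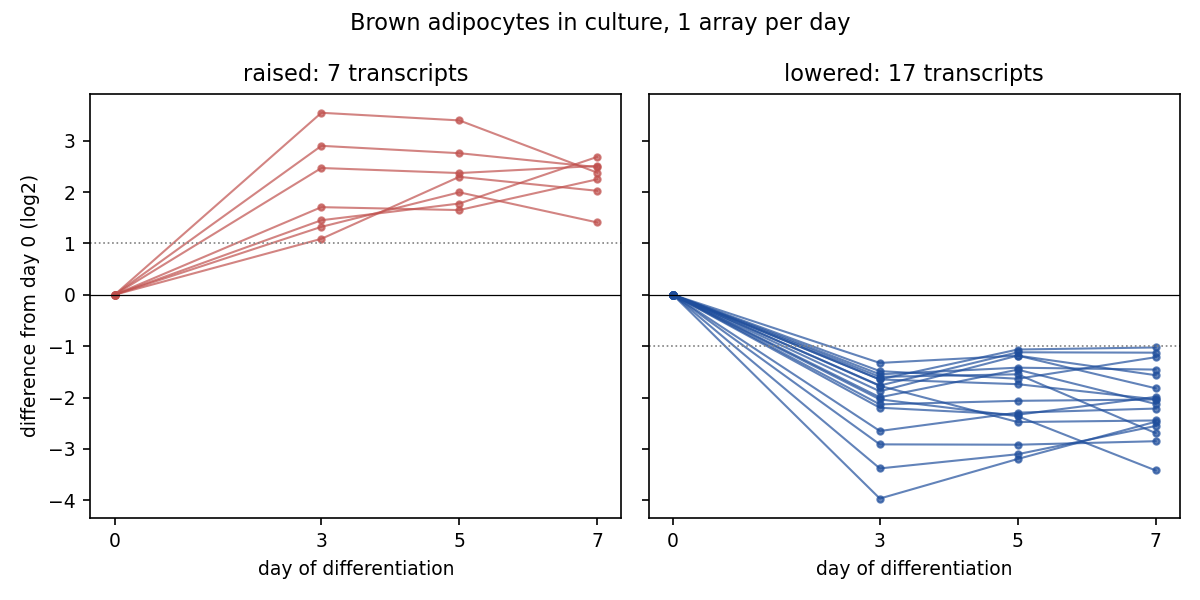
Difference from day 0 (log2) by day of differentiation for the 7 raised and the 17 lowered AK transcripts, 1 line per transcript and 1 array per day; dotted lines mark 2-fold. The lines leave 0 by day 3, as the rule requires. They end between 1.41 and 2.68 for the raised and, at the lowest, at -3.42 for AK041495.

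Set beside the tissues, 2 transcripts were called lower in brown fat and were also lowered in culture, AK038804 and AK030568. Of the 15 lowered transcripts that could be tested in tissue, 13 lay below white fat in brown fat (86.7%), against 79.1% of all lowered probes and 68.2% of the AK transcripts tested in both. Of the 13, AK041495 and AK172441 were tested in tissue only because saline white fat passed the signal flag. AK051963 and AK172441 entered the lowered set only because day 0 passed it. These shares are a description, and no support is drawn from them. The 7 raised transcripts split into 3 higher and 4 lower in brown fat. Across the 110 AK transcripts measured in both, which are not independent of one another, the brown minus white difference and the day 7 minus day 0 difference correlated at r = 0.18 (Spearman rho 0.13), as they did over 42004 probes (r = 0.19). The arrays are not shared between these differences.

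Some AK transcripts had nearly the same profile over the 10 arrays. Of the 81 on every array, 42 spanned at least 2 log2 units, and each of their 861 pairs was compared after centring each transcript on its own mean. The median over pairs of the largest disagreement on any array was 2.43 log2 units. AK084660 and AK155224 disagreed by at most 0.17, the closest pair. AK084660 was at 0.55 and 0.54 in brown fat, 1.34 and 1.38 in saline white fat, 1.79 and 2.55 after CL, and -0.05, -1.38, -1.23 and -1.61 by day. AK155224 was at 0.39 and 0.59, 1.44 and 1.5, 1.81 and 2.57, and 0.02, -1.53, -1.40 and -1.43 in the same order, so both were highest after CL and both were among the lowered in culture. The next closest pairs, at 0.36, 0.37 and 0.38, joined AK020828 to AK048812, AK037428 and AK156275, all brown-enriched. Whether any of these accessions come from one locus was not tested. At the other end AK012771 spanned 0.74 log2 units over the 10 arrays, the least of the 81, and AK007918 spanned 8.79, the most.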

How the data were processed

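The members and lists were chosen with earlier results of these data known. The deposited scanner files give an intensity per spot, made with Agilent Feature Extraction (11.0.1.1 per the file headers, 9.1 per the submitters' processing notes) on a design annotated on mm9. The deposited value table holds log2 values for 18997 probes, 89 of the 154 transcripts among them; its normalization is not given in the sources used here. Each file also holds deposited flags of 0 or 1, which carry no unit.

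Control spots and outlier spots were left out, and 59709 probes remained; 0 spots were saturated. AK090059 lacked 1 white fat array for this reason. Log2 processed signals were set against the 75th percentile of the array and fitted with limma 3.58.1 (R 4.3.3; lmFit, eBayes, group means of 6 tissue arrays), with Benjamini-Hochberg adjustment over the 43542 probes that passed the flag for signal well above background on both arrays of 1 tissue group or more. Of the transcripts, 120 were tested and 34 were not. The fit was also run on simulated data. Its noise was taken from the brown and saline white arrays without the CL arrays, so no conclusion is drawn from that run. Cell arrays were described without a test, at 2-fold against day 0, among probes that passed the flag on 1 cell array or more. Bounds ("at least N-fold") compare mean log2 levels. Named transcripts were the 12 largest called differences in each direction; where under 4 were called, the 6 largest without overlap; and in the cells the 12 largest in each direction. Alternatives were quantile, median and normexp (offset 50) scaling, the value table, other filters, array weights, a replicate block, the 2 groups alone and leaving out each array. The replicate numbers did not pair the samples, so the block is given only among the alternatives.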

Additional observations from a re-analysis of the deposited data

How the results depend on the processing

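For the transcripts picked by the naming rule, in the comparison that picked them, no difference changed sign under any alternative run. For those named between tissues the groups did not overlap, so leaving out 1 array could not reverse the sign. Other filters and the 2 groups alone leave a difference as it is. No support is therefore drawn from the kept signs. Other differences given above, such as that of AK135967, were not checked in this way. The number of AK transcripts called between brown and white fat was 9 (7.50%, against 10.4% of all probes). It was 14 with quantile normalization, 17 with the array median and 15 with normexp (11.7%, 14.2% and 12.5%, against 13.3%, 13.4% and 10.2%). It was 2 with no filter and 19 with only probes well above background on all 6 tissue arrays (1.30% and 20.4%, against 2.32% and 17.2%). It was 56 with array weights, 14 in the deposited value table and 45 with the saline groups alone (46.7%, 15.9% and 37.5%, against 37.7%, 19.5% and 32.7%). With no filter the 2 kept were AK020828 and AK038804. Between CL-treated and saline white fat it stayed 0 under every alternative run, with 2 to 47 transcripts at an unadjusted p under 0.05 by limma. Between CL-treated white fat and brown fat it was 1, and 5 with the array median, 6 with normexp, 0 with no filter, 6 with all 6 tissue arrays above background, 0 with array weights, 8 in the value table and 0 to 27 without 1 array. The cause of these changes was not tested.

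With the replicate block, 25 transcripts were called between brown and white fat (5 higher and 20 lower, 20.8%, against 14.3% of all probes). The block gave 0 between CL and saline (against 0.00230%) and 5 between CL-treated white and brown fat (4.17%, against 5.03%). Deviations of same-numbered arrays correlated at -0.02 (brown and white), -0.08 (brown and CL) and 0.50 (white and CL), and with 2 numbers these do not establish pairs.

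In the cells 24 transcripts passed the 2-fold limit on each day, 15 with normexp, 37 at 1.5-fold, 37 at day 7 alone and 0 by a limma linear trend on the day (14 at an unadjusted p under 0.05). The raised were 7, and 11 with the array median, 14 at 1.5-fold, 15 at day 7 alone and 0 by the trend. The lowered were 17, and 10 with normexp, 10 in the value table and 0 by the trend. In the main setting the 24, 7 and 17 were 20.7%, 6.03% and 14.7%, against 11.6%, 5.36% and 6.20% of all probes. The alternatives in culture are given without shares of all probes, so no comparison with all probes is drawn from their counts. Against the 95th percentile of negative control spots, 61 transcripts were detected on both brown fat arrays in place of 94, and 53 on all 4 cell arrays in place of 95. The median brown minus white difference of all probes moved from -0.12 to -0.07 with quantile or median scaling, 0.10 with normexp and 0.09 in the value table, and that of the AK transcripts to -0.43, -0.46, -0.17 and -0.31. Low signal limits the dim transcripts, since negative control spots passed the flag on 10.9% to 36.4% of spots. The alternatives for tissue-only detection and for the gap between cells and tissues were chosen after seeing the data; AK166279 is not in the value table, so that gap could not be counted there.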

Other observations

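The AK transcripts were measured by 2 kinds of probe, 66 on custom probes and 88 on probes whose name repeats the accession. Of those tested, the median brown minus white difference was -0.83 on the 52 custom probes and -0.34 on the 68 others, and 15.2% and 14.3% were lowered in culture. The 32 tested transcripts outside the deposited value table had a median difference of -1.20, against -0.34 for the 88 inside it. Most of the 20 transcripts tested only because saline white fat passed the signal flag were outside the table. That filter favours a lower level in brown fat, so no support is drawn from these medians. The rule for a place in that table is not given in the sources used here.

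AK171173 changed little in culture, at 4.20, 4.65, 4.85 and 4.46 on days 0, 3, 5 and 7. In the tissues both brown fat arrays failed the signal flag, and it stood at -2.74 and -2.50 in saline white fat, and at -1.14 and -3.31 after CL, where only 1 array passed the flag. It was picked out after its values were seen, and the difference between culture and tissue was not tested.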
